A study of Mus musculus with 8 samples.

Results

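Histone genes were examined in RNA-seq of 4T1 cells, a mouse mammary tumor line used as a model of triple-negative breast cancer. Members were taken by gene symbol (H1f, H2ac, H2bc, H3c, H4c, H2az, H2ax, H3f3 or the older Hist names, without pseudogenes named "-ps"), which gave 65 of 28712 listed genes. Of these, 54 were replication-dependent genes of the histone clusters, 10 were variant histone genes and 1, *H3f3aos*, was an antisense RNA caught by its symbol. The study treated confluent cultures with purified single-domain antibodies (sdAbs) at 0.5 μg/mL, with cells kept at 1% oxygen. sdAb#07.81 binds the stress-response nuclear protein NUPR1 and sdAb-Con is the control antibody, and both proteins carried a Flag tag, a degron from Odc1, a Tat peptide and a His tag. The groups were sdAb#07.81 (24 h), sdAb#07.81 (48 h), sdAb-Con (48 h) and Con, with 2 libraries each. All came from a single cell line, no sdAb-Con group was made at 24 h, and Con was not analysed here.

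Histones package DNA into nucleosomes. Most of the core histone protein of a dividing cell is made in S phase from clustered, intronless replication-dependent genes, whose mRNAs end in a conserved stem-loop held by the stem-loop binding protein SLBP instead of a poly(A) tail. Variant histones (H2A.Z, H2A.X, H3.3, H1.0) come from dispersed genes, mostly with polyadenylated mRNAs, and can be made outside S phase. A cultured tumor line would usually carry both kinds of transcript, but poly(A)-selected libraries under-represent the stem-loop kind. Whether these libraries were made by poly(A) selection or by rRNA depletion is not given in the sources used here.

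The stem-loop and the poly(A) signal are shown first because they are the 3′ end elements by which the 2 kinds of transcript are usually told apart. They were read from the sense strand of GENCODE M21 transcripts (build GRCm38), and every stretch below lies in a 3′ UTR. Capitals mark the letters searched, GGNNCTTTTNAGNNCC for the stem-loop (16 bases, no overlap with the other motif) and AATAAA for the poly(A) signal in the last 50 bases of the transcript. The first set holds stem-loops of the replication-dependent genes with the most reads, of 2 genes whose transcript model stops soon after the loop (*H2ac11*, *H4c18*) and of the variant gene *H2ax*.
H1f2, chr13:23739507-23739536 (+): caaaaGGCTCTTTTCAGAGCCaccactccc
H1f3, chr13:23555782-23555811 (+): caaacGGCTCTTTTCAGAGCCacccacaac
H1f4, chr13:23621773-23621802 (-): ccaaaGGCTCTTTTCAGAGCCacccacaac
H2ac11, chr13:22042474-22042503 (-): acaaaGGCTCTTTTCAGAGCCacctaacct
H4c18, chr13:21831789-21831818 (-): ctaaaGGCCCTTTTCAGGGCCatccaatta
H4c9, chr13:22040957-22040986 (-): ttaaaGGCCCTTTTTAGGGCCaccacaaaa
H2ax, chr9:44335235-44335264 (+): acaaaGGCCCTTTTAAGGGCCaccacctcc

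The second set holds poly(A) signals of 2 replication-dependent genes and of 3 variant genes among those with the highest levels.
H1f2, chr13:23740330-23740359 (+): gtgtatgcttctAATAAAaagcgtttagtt
H2bc21, chr3:96223705-96223734 (+): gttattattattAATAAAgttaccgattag
H1f0, chr15:79030471-79030500 (+): ttaaaactttaaAATAAAactggaaaggaa
H3f3a, chr1:180800836-180800865 (-): aatttgaaaaatAATAAAagtaccaataga
H2az2, chr11:6427240-6427269 (-): caaatgcacagaAATAAAgaaactagcact

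The stem-loop letters stood in 35 of the 54 replication-dependent transcript models, in *H2ax* and in the germline linker gene *H1f6*, against 72 of 21901 protein-coding genes (0.329%). Of the other replication-dependent models, 8 hold coding sequence only, so their windows could not show a loop. The commonest form, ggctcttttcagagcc, was shared by 19 genes of the H1, H2A, H2B and H3 families. The form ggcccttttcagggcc occurred in 6 genes, all of the H4 family, and the 2 genes with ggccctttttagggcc and the 2 with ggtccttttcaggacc were also H4 genes. The AATAAA letters were in the last 50 bases of 65.7% of protein-coding genes, of 9 replication-dependent genes and of 6 of the 10 variants. Of these 6 variants, *H1f6*, *H1f8* and *H1f10* stood no higher than the value of a single read. *H1f2* carried both motifs, with 840 bases of annotated transcript after its stem-loop.

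The values are the authors' mean normalized counts, that is, read counts divided by library size factors and averaged over the 4 libraries of a table. There are 2 tables, here named by their groups. The 48 h table pools sdAb-Con (48 h) with sdAb#07.81 (48 h), and the sdAb#07.81 table pools sdAb#07.81 (24 h) with sdAb#07.81 (48 h). No value per library is given, so no spread between replicates and no test stand behind any comparison, and the errors below cover counting only. A single read added between 0.230 and 0.264 to a mean in the 48 h table and between 0.230 and 0.273 in the sdAb#07.81 table. Summed over all genes the means came to 17867752 and 17900221. The epithelial markers *Krt8*, *Krt18*, *Krt14*, *Epcam* and *Cdh1* were all measured. They lay between 292 and 15180 in the 48 h table and between 432 and 14377 in the sdAb#07.81 table. *Krt14* was the lowest in both. Of the receptors that define triple-negative tumors, *Pgr* stood at 0.252 and 0.718, while *Esr1* stood at 405 and 356 and *Erbb2* at 569 and 715. Of 5 markers of other cells none was at 0 in both tables. *Ptprc*, *Cd3e* and *Pecam1* stayed between 0.273 and 7.15, *Cd68* was at 684 and 413 and *Pdgfra* at 607 and 868, and their part in the histone values was not tested.

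Histone RNA as counted in these tables was nearly all variant RNA. The 65 symbols without the antisense RNA summed to 55241 in the 48 h table and 58937 in the sdAb#07.81 table, or 0.309% and 0.329% of all mean normalized counts. Replication-dependent genes supplied 1.25% and 1.09% of those sums, or 1.89% and 1.78% when each gene was first divided by its transcript length. The median replication-dependent gene stood at 1.42 and 2.14, and the median variant gene at 522 and 602.

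*H1f0*, the linker histone H1.0 that is typical of slowly dividing and differentiated cells, was the most abundant member. Its mean normalized count was 29190 in the 48 h table and 33460 in the sdAb#07.81 table, 52.8% and 56.8% of the histone sum. Per kb of transcript it stood at 14205 and 16282, and ranked 37 and 25 among all genes by mean normalized count. *H3f3b*, which encodes the replacement histone H3.3, came next at 18316 and 16917, or 7285 and 6729 per kb. *H3f3a*, which encodes the same protein from another gene, had 2940 and 3134, or 1035 and 1103 per kb. The H2A.Z gene *H2az1* stood at 3054 and 3572 (2857 and 3341 per kb) and its paralog *H2az2* at 844 and 797 (517 and 488 per kb). *H2ax*, whose protein is phosphorylated around DNA breaks, was the lowest of the 6 variants that reached 10, at 201 and 407 (145 and 294 per kb). Per kb the order *H1f0*, *H3f3b*, *H2az1*, *H3f3a*, *H2az2*, *H2ax* was the same in both tables, although without libraries the spread between neighbours in it is unknown.

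The other 4 variant genes were under 10 in both tables. *H3f3c*, annotated as a processed pseudogene, had 6.72 and 7.68. *H1f10* was at 0.252 and 0.259, the value of a single read, and the germline linker genes *H1f6* and *H1f8* were no higher.

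**Figure D1:**
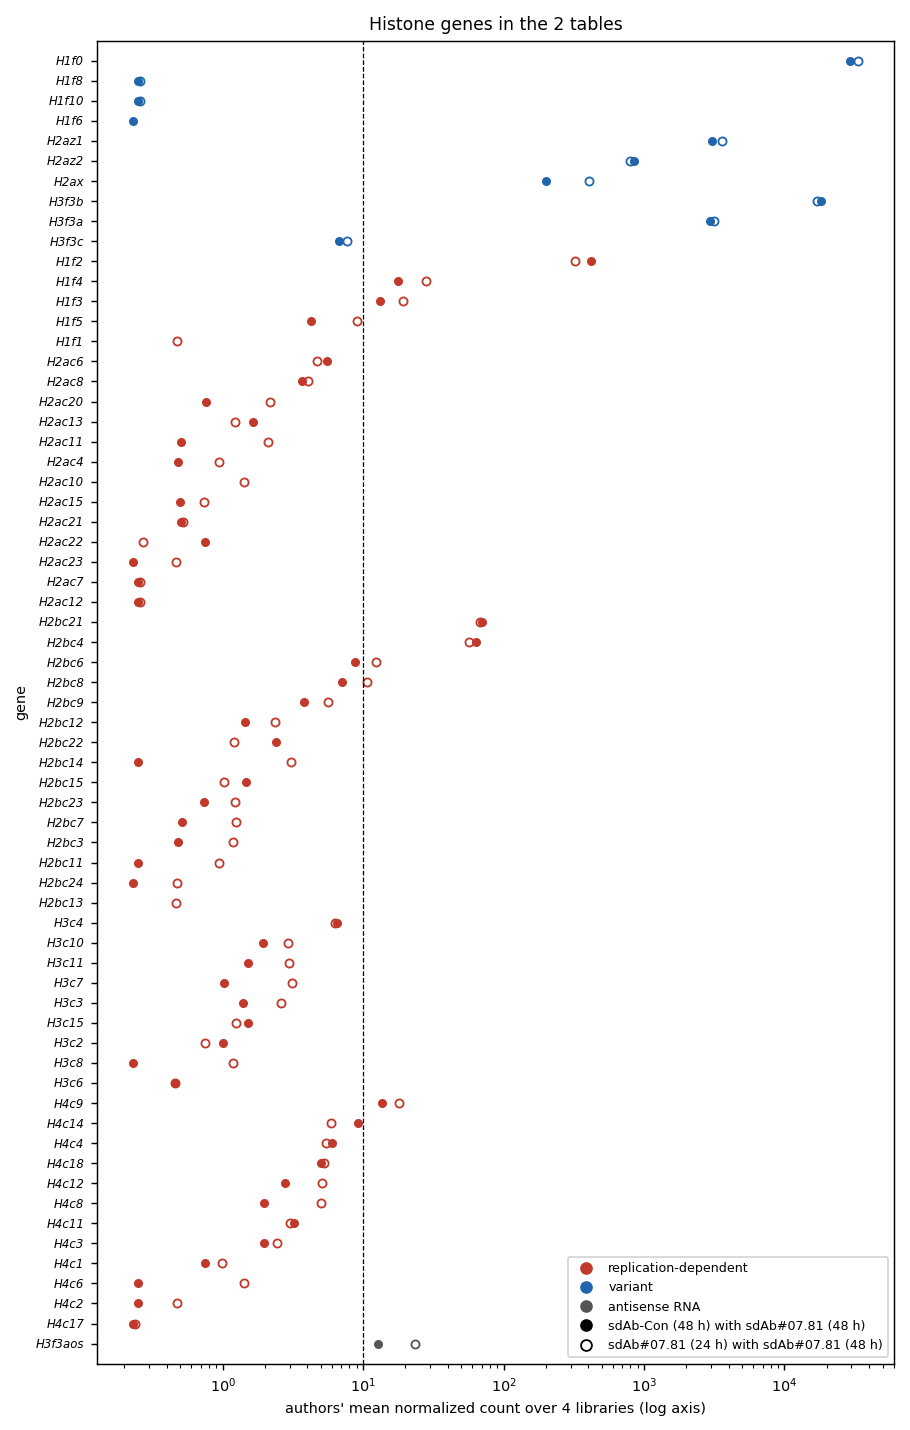
Mean normalized count (log axis) of each of the 65 genes in the table pooling sdAb-Con (48 h) with sdAb#07.81 (48 h) (filled) and in the table pooling both sdAb#07.81 groups (open). Points are the authors' means over 4 libraries, a gene listed in 1 table has 1 point, and the dashed line marks 10. Variants (blue) reached 33460, while 1 replication-dependent gene (red), *H1f2*, exceeded 100.

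Among the replication-dependent genes, the linker histone gene *H1f2* stood apart. It had 416 in the 48 h table and 324 in the sdAb#07.81 table, 60.5% and 50.5% of the whole class. The H2B genes *H2bc21* (69.8 and 67.9) and *H2bc4* (64.0 and 56.9) followed, and these 3 genes made up 79.9% and 70.0% of the class. Per kb the order of the 6 genes with at least 10 in both tables was *H1f2* (267 and 208), *H2bc4* (55.4 and 49.2), *H2bc21* (26.6 and 25.9), *H4c9* (18.7 and 24.7), *H1f4* (9.15 and 14.5) and *H1f3* (1.77 and 2.61). *H2bc8*, which reached 10 in the sdAb#07.81 table only, stood above *H1f4* and *H1f3* per kb at 11.4 and 17.1. *H1f2* per kb was thus above *H2ax* in the 48 h table and below it in the sdAb#07.81 table.

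At least 10 was reached by 6 of the 54 replication-dependent genes in the 48 h table and by 8 in the sdAb#07.81 table, compared with 51.3% and 51.1% of all listed genes. Just inside this minimum were *H1f3* at 13.1 and *H4c9* at 13.6 in the 48 h table. Just outside it were *H4c14* (9.21 and 5.91), *H2bc6* (8.78 and 12.3), *H2bc8* (7.06 and 10.6) and *H1f5* (4.25 and 9.07). A mean under 1, which is about 4 reads over all libraries or fewer, was found for 21 and 16 genes, counting those listed. The tables listed 51 and 54 of the class, and *H1f1*, *H2ac10* and *H2bc13* appeared in the sdAb#07.81 table alone.

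The families were unevenly covered among the replication-dependent genes taken by symbol. No H2A gene among them reached 10. The 3 highest by the mean of both tables were *H2ac6* (5.50 and 4.70), *H2ac8* (3.67 and 4.06) and *H2ac20* (0.767 and 2.18). *H2aw*, an H2A gene outside the symbol rule, stood at 15.7 in both tables. No H3 gene of the class reached 10 either, with *H3c4* at 6.56 and 6.35, *H3c10* at 1.95 and 2.90 and *H3c11* at 1.504 and 2.95. The 12 H4 genes summed to 45.2 and 53.3, of which *H4c9* gave 13.6 and 17.9, *H4c14* 9.21 and 5.91, and *H4c4* 5.98 and 5.48. The 15 H2B genes summed to 161 and 167, and the 5 H1 genes to 451 and 381. Genes of one core histone family are near-identical copies, and how reads that match several copies were counted is not given in the sources used here. The split among copies is therefore uncertain, and so are the totals of these families and of the class.

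Levels were then set beside the place where the annotated transcript ends. Of the 35 replication-dependent genes with the stem-loop letters, 18 have a model that ends within 100 bases of the loop. None of these reached 10 in both tables, the highest mean over both was 5.12 and their median was 0.876. In the other 17 the model runs on for 151 to 4884 bases, and 4 of them (*H1f2*, *H1f3*, *H1f4* and *H4c9*) reached 10 in both tables, with a median of 5.73. Per kb of transcript the medians were 2.03 and 4.21. The minimum of 10 is on counts not divided by length. Per kb, *H4c18* of the first 18 stood at 11.7 and 12.2. That is above *H1f3* (1.77 and 2.61) and on either side of *H1f4* (9.15 and 14.5). The 19 genes without the letters had a median of 1.61 per kb and included *H2bc21* and *H2bc4*. *H2ax*, with 822 bases after its loop, was the only loop-carrying variant to reach 10. A read count per gene does not show where in a transcript the reads lie, so whether reads came from beyond the loop was not measured.

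**Figure D2:**
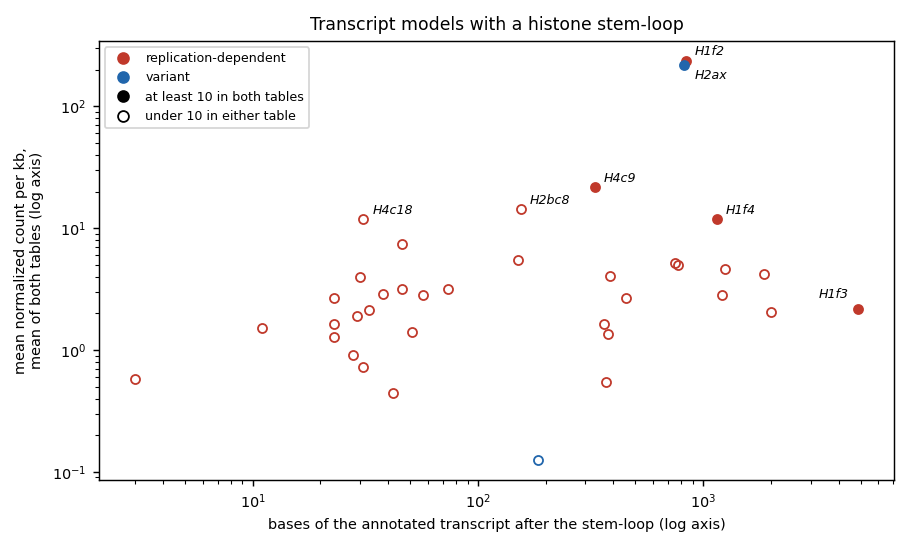
Level per kb of transcript (mean of both tables, log axis) against the bases of annotated transcript after the stem-loop (log axis) for the 35 replication-dependent genes (red) and 2 variants (blue) that carry it. Filled points reached 10 in both tables before division by length. None of the 18 replication-dependent genes with under 100 bases after the loop is filled.

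Both tables hold the sdAb#07.81 (48 h) libraries. Their means can therefore be set against each other to compare the remaining groups, sdAb#07.81 (24 h) against sdAb-Con (48 h). The sdAb#07.81 table was first divided by 1.0322, the median ratio over the 13629 genes with at least 10 in both. The difference of the 2 means, doubled, is then the difference between those group means, and their ratio is a lower limit on the size of the fold between the groups. The groups differ in antibody and in time, and the effects of the 2 cannot be told apart. Ratios of at least 1.2 were found for 21.7% of the 13629 genes, ratios as far below 1 for 20.2%, and the middle 90% of genes lay between 0.687 and 1.53.

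By the ratio of the pooled means, *H2ax* differed most among the 6 variants with at least 10. Since each ratio is a lower limit, this does not rank the folds between the groups. On the common scale its mean was 201 in the 48 h table and 394 in the sdAb#07.81 table, a ratio of 1.96, or 0.97 on the log2 scale with a counting SE of at most 0.06. The mean of the sdAb#07.81 (24 h) libraries was thus above that of sdAb-Con (48 h) by 387 normalized counts, with a counting SE of at most 24.4. In this pooled ratio *H2ax* was the only 1 of the 6 variants past 1.2-fold. The others had ratios of 1.13 (*H2az1*), 1.11 (*H1f0*), 1.03 (*H3f3a*), 0.915 (*H2az2*) and 0.895 (*H3f3b*), which put the median of the 6 at 1.07. The paired genes for H2A.Z lay on either side of 1, as did those for H3.3.

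*H1f2* pointed the other way. Its mean was 416 in the 48 h table and 314 on the common scale in the sdAb#07.81 table, a ratio of 0.754 (log2 -0.41, counting SE at most 0.05). The mean of the sdAb#07.81 (24 h) libraries minus that of sdAb-Con (48 h) was -205 normalized counts, with a counting SE of at most 27.0. The other H1 genes with at least 10 were higher in the sdAb#07.81 table. *H1f4* had 17.7 and 27.1 (ratio 1.54, log2 0.62, counting SE at most 0.22) and *H1f3* had 13.1 and 18.7 (ratio 1.43, log2 0.51, counting SE at most 0.26). The H4 gene *H4c9* had 13.6 and 17.4 (ratio 1.28), with a log2 ratio of 0.35 that is within 1.96 counting SEs of 0. *H2bc21* and *H2bc4* had ratios of 0.944 and 0.860. In all, 3 of the 6 replication-dependent genes were higher past 1.2-fold and 1 was lower, with a median ratio of 1.11. With 6 genes, these shares say little beside the 21.7% and 20.2% of all genes.

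The 48 replication-dependent genes under 10 in either table were summed to gain reads. Their sum was 94.0 in the 48 h table and 123 on the common scale in the sdAb#07.81 table, a ratio of 1.31 with a 95% counting interval of 1.15 to 1.499. Of the 45 listed in both tables, 29 had ratios above 1 and 16 below, and the 3 others were listed in the sdAb#07.81 table only. All other genes under the minimum had a summed ratio of 1.07 (1.06 to 1.08). Of the 11999 of these listed in both tables, 5892 had ratios above 1 and 6107 below, while 1658 were listed in the sdAb#07.81 table only and 1374 in the 48 h table only. By family the summed ratios were 2.17 for the 2 H1 genes (1.23 to 3.85), 1.47 for H2B (1.16 to 1.88), 1.33 for H3 (0.963 to 1.85), 1.23 for H2A (0.879 to 1.73) and 1.08 for H4 (0.852 to 1.38). The H1 value rests on *H1f5*, at 4.25 and 8.79 on the common scale. The sum of all 54 genes gave the opposite direction to the median, 0.902 (0.855 to 0.952), since *H1f2* makes up 60.5% and 50.5% of it. Without *H1f2* the remaining 53 genes gave 1.13 (1.04 to 1.23). No interval here includes variation between libraries.

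**Figure D3:**
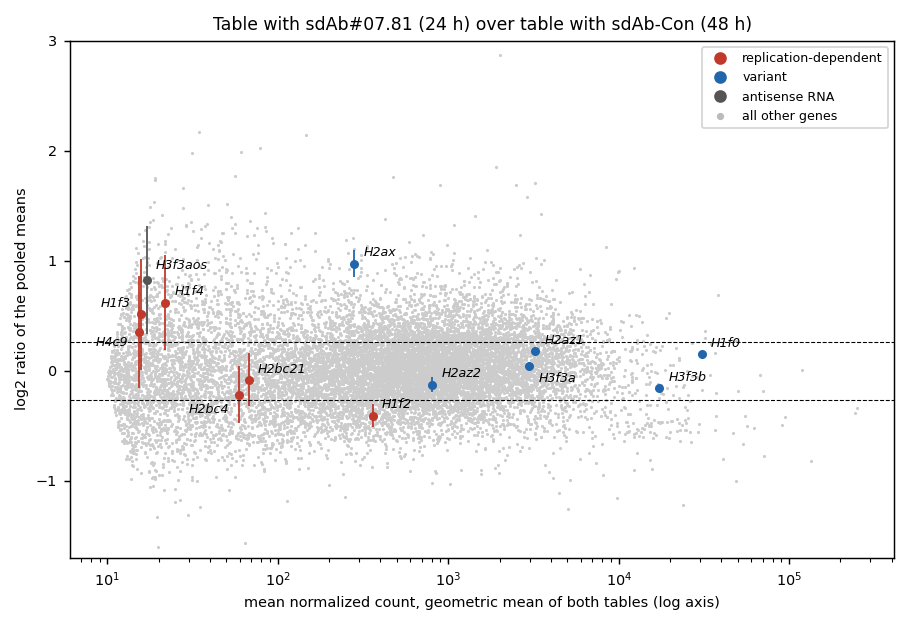
Log2 ratio of the pooled means (the table of both sdAb#07.81 groups over the table of both 48 h groups, common scale) against the mean normalized count (log axis) for the 13629 genes with at least 10 in both. Bars are 95% counting intervals, dashed lines mark 1.2-fold, and *H2ax* (0.97) and *H1f2* (-0.41) are the histone genes above 100 that lie outside them.

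The antisense RNA *H3f3aos* had 12.8 in the 48 h table and 22.7 on the common scale in the sdAb#07.81 table, a ratio of 1.77. Its partner *H3f3a* had a ratio of 1.03. Whether reads were counted by strand is not given in the sources used here, so reads of the pair may be mixed.

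Genes that supply histones were mostly higher in the sdAb#07.81 table. Of 34 listed symbols 33 were found, all with at least 10 in both tables, and 18 were past 1.2-fold, all of them higher, with none lower and a median ratio of 1.25, where 21.7% of all genes were higher and 20.2% lower. In the transcription and 3′ end group, 7 of 14 were higher past 1.2-fold, and 12 of 14 had ratios above 1. *Slbp*, the protein bound to the stem-loop, had 1069 in the 48 h table and 1521 on the common scale in the sdAb#07.81 table, a ratio of 1.42. *Npat*, the cyclin E/CDK2 substrate that drives transcription of the clusters, had 1093 and 1460 (1.34), and *Casp8ap2*, another component of the histone locus body, had 662 and 1020 (1.54). The others were the cleavage factors *Cstf2* (1.49) and *Cpsf2* (1.25), the zinc finger protein *Zfp473* of the histone pre-mRNA processing machinery (1.30) and cyclin E2 *Ccne2* (1.27). Of the other genes for cyclin E/CDK2, cyclin E1 *Ccne1* was at 0.892 and *Cdk2* at 1.14. *Lsm11*, a subunit of the U7 snRNP that cuts histone pre-mRNA, was at 0.893 and *Lsm10* at 1.07.

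In the group of chaperones and exchange factors, 11 of 19 were higher past 1.2-fold, and 14 of 19 had ratios above 1. *Nasp*, which holds soluble H3-H4, had the largest ratio, 1.68, with 1626 and 2728 on the common scale. *Chaf1a* of the replication-coupled assembly factor CAF-1 had 1.55, *Chaf1b* of the same complex 1.14 and the H3-H4 chaperone *Asf1b* 1.33, while *Asf1a* was at 0.906. *Rbbp4* (0.942), *Nap1l1* (0.897) and *Nap1l4* (0.989) were also below 1. Both subunits of FACT were measured, with *Supt16* at 1.31 and *Ssrp1* at 1.13. Of the H2A.Z exchange machinery, *Srcap* had 1.63, *Ep400* 1.48 and *Anp32e* 1.35. *Srcap* had the lowest level of the list, 36.6 and 59.6 on the common scale, with a log2 counting SE of at most 0.15. *Hjurp*, the chaperone of the centromeric histone CENP-A, had 1.42. Of the factors for H3.3, *Cabin1* had 1.26, *Ubn1* 1.25 and *Atrx* 1.22, while *Hira* was at 1.12 and *Daxx*, at 0.865, had the lowest ratio of the list.

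S-phase genes were mostly higher in the sdAb#07.81 table too. All 21 were measured and 16 were higher past 1.2-fold, with none lower and a median log2 ratio of 0.59, beside the same 21.7% and 20.2% of all genes. *Rrm2*, a subunit of ribonucleotide reductase, had the largest ratio (2.03) and *Gins2* the smallest (0.958). The replication clamp *Pcna* had 1497 and 2246 on the common scale, the ratios of the helicase subunits *Mcm2* to *Mcm7* lay between 1.31 and 1.76, and that of the proliferation marker *Mki67* was 1.91. *H2ax*, at 1.96, lay among the highest of these, whereas *H1f2*, at 0.754, was below all of them. In bulk RNA, a smaller share of cells in S phase and less of a transcript per cell cannot be told apart. The part of S phase in the histone ratios was not tested.

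Histone genes outside the symbol rule were also set beside the members. Of 15 listed symbols 8 were found, some being older names of the same genes, and 4 had at least 10 in both tables. The centromeric histone *Cenpa* was higher, with 1825 and 2465 on the common scale (ratio 1.35). *Macroh2a1* (1.04), *H2aw* (0.971) and *H2aj* (0.928) had pooled ratios within 1.2-fold, which set no upper limit on the fold between the groups.

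**Figure D4:**
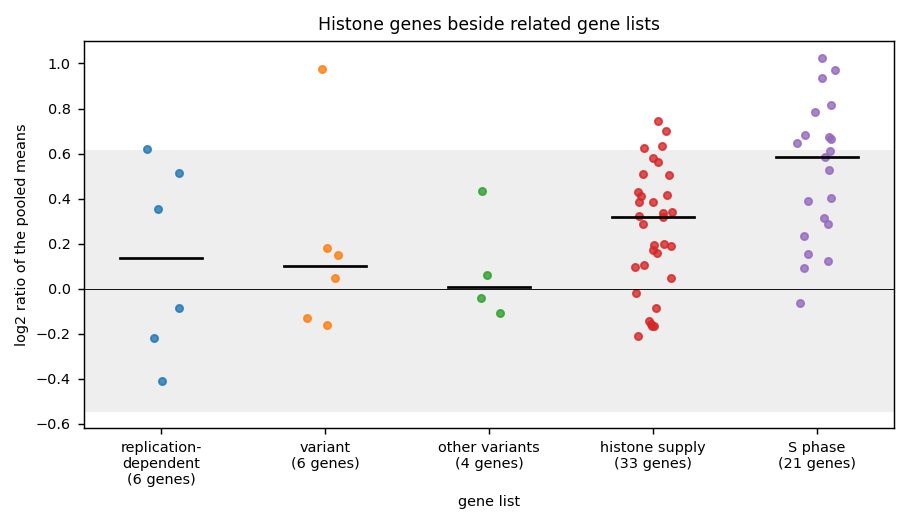
Log2 ratio of the pooled means (the table of both sdAb#07.81 groups over the table of both 48 h groups) for single genes (points) of 5 lists with at least 10 in both tables, with the list median as a bar and the middle 90% of all 13629 genes in grey. Replication-dependent genes spread from -0.41 to 0.62, while the median of the S-phase genes was 0.59.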

How the data were processed

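Paired-end RNA-seq of 4T1 cultures was done by the authors, 2 libraries for each of 4 groups. The submitters' processing notes name cutadapt 1.9.1, HISAT2 2.0.1, HTSeq 0.6.1 and the human build GRCh38.p14, although the cells and the gene identifiers are of mouse. The build of the tables' coordinates is not given in the sources used here, but the spans of all 65 members had the lengths of GENCODE M21 (GRCm38) genes.

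The deposited values used are signal: per gene, counts that the authors divided by size factors and averaged over the 4 libraries of a table. Both tables also hold the authors' own comparison (a linear and a log2 fold change, the error and test score of the latter, and raw and adjusted p-values), which was not used. The table names call the control "Nab". It was taken as sdAb-Con, the only other group labelled 48 h. Depth per library is not given.

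Ratios were taken for genes with at least 10 in both tables, after scaling to a median ratio of 1. Single-read steps of the libraries that both tables hold gave a factor of 1.0316 (1.0298 and 1.0334), against 1.0322. Counting intervals (95%) treat reads as independent, and the standard error given is an upper limit that takes the reads of the shared libraries as separate in each table. Named genes were the variants with at least 10, the 3 highest replication-dependent genes of each family, those with the largest ratios, and supply genes past 1.2-fold. Other genes were named after their values were seen. The members and lists were chosen with earlier results of these data known. The procedure was tested on simulated data. Tables were read with pandas 2.3.3 and numpy 2.4.6 under Python 3.11.15, quantiles came from scipy 1.17.1 and plots from matplotlib 3.10.9. Alternatives were other minimums, scalings, folds, a pseudocount and a different class for *H2ax*.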

Additional observations from a re-analysis of the deposited data

How the results depend on the processing

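No paired analysis was possible because only means over libraries were used, and for the same reason no replicate could be left out. The count of replication-dependent genes past 1.2-fold, 4, became 38 (29 higher, 9 lower) of the 51 genes listed above 0 in both tables, 1 with at least 100 in both (*H1f2*, lower), and 1 at 1.5-fold. Their median log2 ratio, 0.14, became 0.51 above 0 and -0.42 with at least 100, where *H1f2* is the only gene left. The scaling was taken anew for each minimum, so this value differs slightly from the -0.41 of *H1f2* in the main setting. The median was 0.35 with *H2ax* in the class, and the sum of the members under 10 gave 0.39, whose own counting interval (ratio 1.15 to 1.499) lies above the median ratio of 1.11. Without a minimum most genes rest on a few reads. The count of variant genes, 1, became 4 at 1.1-fold and 0 when *H2ax* was moved to the replication-dependent class, and that of supply genes, 18, became 28 (23 higher, 5 lower) at 1.1-fold and 4 at 1.5-fold. The median log2 ratio of the variants, 0.099, was 0.047 above 0, 0.145 without scaling, 0.142 when scaled by the summed means and 0.047 without *H2ax*. The replication-dependent share of the histone sum became 1.61% and 1.78% with *H2ax* in the class, and 1.89% and 1.78% per kb. The values of 0.35 and 0.39 and those not printed here, 28 in all, lay within the wide counting error of the reported median or, for counts, within 1.5 times the reported count. Scaling by single-read steps and summing the members under 10 were added after the data were seen.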

Other observations

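Symbols left out as pseudogenes also had reads. *H3f3a-ps1* stood at 19.6 in the table of both 48 h groups and 17.3 in the table of both sdAb#07.81 groups, and *H3f3a-ps2* at 2.21 and 1.95. *H1f11-ps* had 0.792 and 2.46, and *H2ac5-ps* 0.252 and 0.496. *H3f3a-ps1* was thus above *H4c9*, *H1f3* and *H1f4* in the first table, and how reads shared with *H3f3a* were assigned is not given in the sources used here.

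*H2bc14* had the value of a single read, 0.252, in the table of both 48 h groups and 3.07 in the table of both sdAb#07.81 groups, and *H2ac11* had 0.503 and 2.11.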
